A study of Mus musculus with 12 samples.

Results

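Tmem38a and Tmem38b encode TRIC-A and TRIC-B, the trimeric intracellular cation channels, and their probe sets were followed across 4 pools of mouse adrenal RNA. The members were chosen by gene symbol, as every probe set listed for Tmem38a or Tmem38b and for no other gene, and Tmem38b was singled out for description because of its measured difference between the ASP+CGP and CON pools and the gap between its own probe sets. Of 26533 probe sets in the deposited values, 17710 are listed with 1 gene symbol, and 2 of these, for 1 gene of 16244, met the rule. Both belong to Tmem38b (Entrez 52076), one being probe set 10505064, which is listed with 3 transcripts, and the other probe set 10505071, which is listed with 1. For Tmem38a no probe set of its own was found, because the only one that carries its symbol, 10572815, is listed for both Nwd1 and Tmem38a and cannot be given to either. It is described apart from the members. Since measured values drew attention to the gene, the signals of Tmem38b are given as a description, with no test.

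Total RNA came from the adrenal glands of male C57Bl/6J mice aged 21 weeks, and equal amounts from the animals of a group were combined into 1 pool that was hybridised to 3 Affymetrix Mouse Gene ST arrays, giving 12 arrays in all. The CON pool came from untreated mice. The CGP pool came from offspring of dams that drank CGP 39551, an orally active drug that blocks NMDA receptors, from conception until weaning at postnatal day 28, at a dose set to 5 mg per kg body weight of the dams. Mice of the ASP pool were exposed to the sweetener aspartame, first in utero through the dams and then in their own drinking water to the end, at 46 mg per kg per the labels, and those of the ASP+CGP pool received both agents. All groups were wild type and of the same strain, sex and age. Because each group is 1 pool, the standard deviations and p-values reflect variation among arrays that share RNA, and say nothing of variation among animals.

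TRIC channels sit in the membrane of the endoplasmic or sarcoplasmic reticulum and pass potassium ions, which balance the charge that leaves when calcium is released through ryanodine or inositol trisphosphate receptors. TRIC-A is most abundant in excitable tissues such as skeletal muscle, heart and brain, whereas TRIC-B is found in most tissues. Loss of TRIC-B in people causes a recessive form of brittle bone disease, in which the processing of collagen in the endoplasmic reticulum is disturbed.

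Several pools stood apart in ways that touch the values below. Calls here follow the rule used throughout, a limma adjusted p under 0.05 and at least 1.4-fold. Markers of the adrenal cortex had a median signal of 12.3 to 12.5 (log2) on all arrays, although in ASP 4 of 11 were called lower than in CON (median log2 difference -0.24), as were 4 of 11 chromaffin cell markers (median -0.42). In ASP, however, 10 of 10 neuron markers, 9 of 9 oligodendrocyte markers and 9 of 10 astrocyte markers were called higher than in CON, with medians 1.98, 2.08 and 2.40 above it on the log2 scale, whereas in ASP+CGP 2, 0 and 1 of them were. Of 9 hepatocyte markers, whose median signal was 11.80 to 11.85 on the CON arrays, 7 were higher in CGP, 7 were lower in ASP and 9 were lower in ASP+CGP. The interquartile range of signals was also smaller on the ASP+CGP arrays, at 2.20 to 2.29, than on the CON arrays, at 2.58 to 2.62. In pooled whole tissue, the number of cells of a type, the RNA per cell and the make-up of the dissected tissue cannot be told apart.

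**Figure D1:**
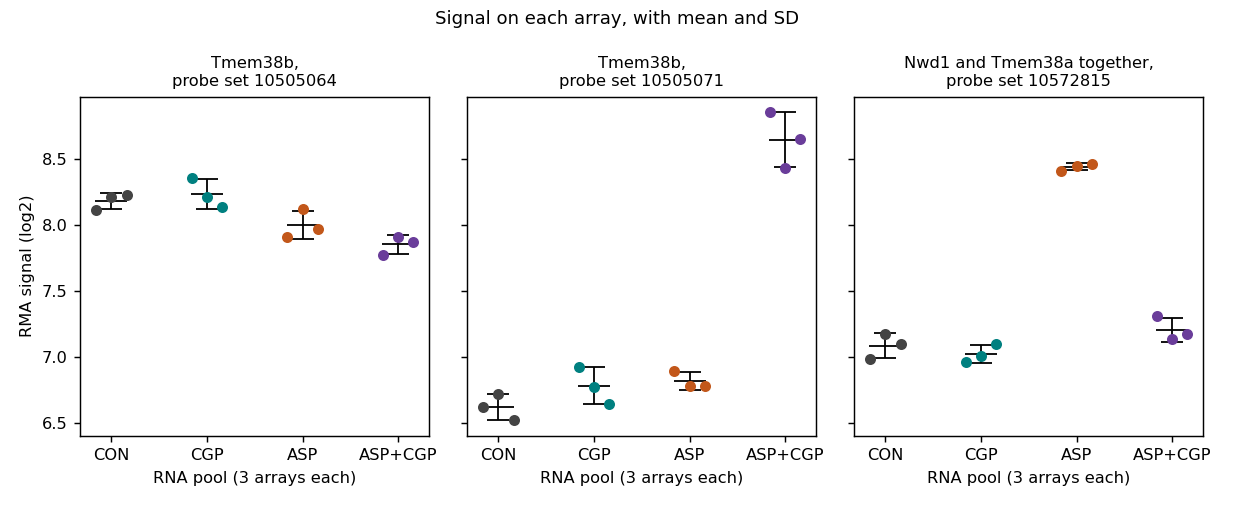
Each point is the RMA signal (log2, vertical axis) of 1 array, by RNA pool (horizontal axis), for both Tmem38b probe sets and for the probe set listed for Nwd1 and Tmem38a; crosses give the mean and SD of 3 arrays. Probe set 10505071 stood high on the 3 ASP+CGP arrays alone (8.44 to 8.86), 10505064 was lowest there (7.77 to 7.91), and the shared probe set stood high in ASP (8.41 to 8.47).

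Probe set 10505064 of Tmem38b showed small differences among the pools, with ASP+CGP the lowest. Its log2 signal was 8.11, 8.21 and 8.23 on the 3 CON arrays, 8.36, 8.22 and 8.13 in CGP, 7.91, 8.12 and 7.97 in ASP, and 7.77, 7.91 and 7.87 in ASP+CGP. The CON and CGP arrays overlapped, and so did CON and ASP, where 1 ASP array reached 8.12. All 3 ASP+CGP arrays lay below the other 9, although the lowest ASP array gave the same 7.91 after rounding. The pool means were 8.18 ± 0.06 in CON, 8.24 ± 0.11 in CGP, 8.00 ± 0.11 in ASP and 7.85 ± 0.07 in ASP+CGP (SD, n = 3 arrays). Against CON the log2 difference was 0.05 in CGP, -0.18 in ASP and -0.33 in ASP+CGP, each with a standard error of 0.07 from the fit over all probe sets. In linear terms ASP+CGP stood at 0.795 of CON. The pools ranked CGP, CON, ASP and ASP+CGP from the highest, and neighbours in this order either overlapped (CGP with CON, and CON with ASP) or met at 7.91 (ASP with ASP+CGP, which differed by -0.15).

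Probe set 10505071 of the same gene showed a single step. It gave 6.62, 6.71 and 6.52 in CON, 6.93, 6.77 and 6.64 in CGP, 6.89, 6.78 and 6.78 in ASP, and 8.86, 8.44 and 8.65 in ASP+CGP. The CON and CGP arrays overlapped, the ASP arrays lay within the range of CGP and just above the highest CON array, and the 3 ASP+CGP arrays were far above the other 9. The means were 6.62 ± 0.10, 6.78 ± 0.14, 6.82 ± 0.07 and 8.65 ± 0.21 in the same order of pools (SD, n = 3 arrays). The difference from CON was 0.17 in CGP, 0.20 in ASP and 2.03 in ASP+CGP (log2, standard error 0.10), the last being 4.09-fold. Against ASP, the ASP+CGP signal was 1.83 higher, or 3.56-fold. The difference of ASP+CGP from CGP exceeded that of ASP from CON by 1.67 ± 0.14 SE. The ASP+CGP pool was also the one in which the 3 arrays of this probe set were spread most widely, although the spread was small beside the step.

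The step of 10505071 was the largest rise among all 17319 tested probe sets in ASP+CGP against CON, and the next reached 1.64. Among the probe sets that were not tested because they list several genes or none, 26 of the 7746 without a gene rose by at least as much, up to 7.00, and 0 of the 1077 with several genes did. In the same comparison 10505064 ranked 12682 from the highest, which placed it lower than most tested probe sets. As these ranks come from the contrast that drew attention to the gene, nothing is read from them.

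The 2 probe sets thus moved apart by a different amount in each pool. The log2 difference from CON of 10505071 minus that of 10505064 was 0.11 in CGP, 0.38 in ASP and 2.36 in ASP+CGP, with a standard error of 0.14 computed from these probe sets alone. In CGP the disagreement was smaller than its standard error. In ASP the probe sets had opposite signs, 0.20 against -0.18, both near the size of the array spread, and after cyclic loess, a scaling that removes trends with brightness between arrays, they were 0.28 and -0.040. In ASP+CGP the signs were again opposite, 2.03 against -0.33. For ASP+CGP against ASP the disagreement was 1.98, and for the interaction, in which the pools' differences are set against each other, it was 1.87.

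**Figure D2:**
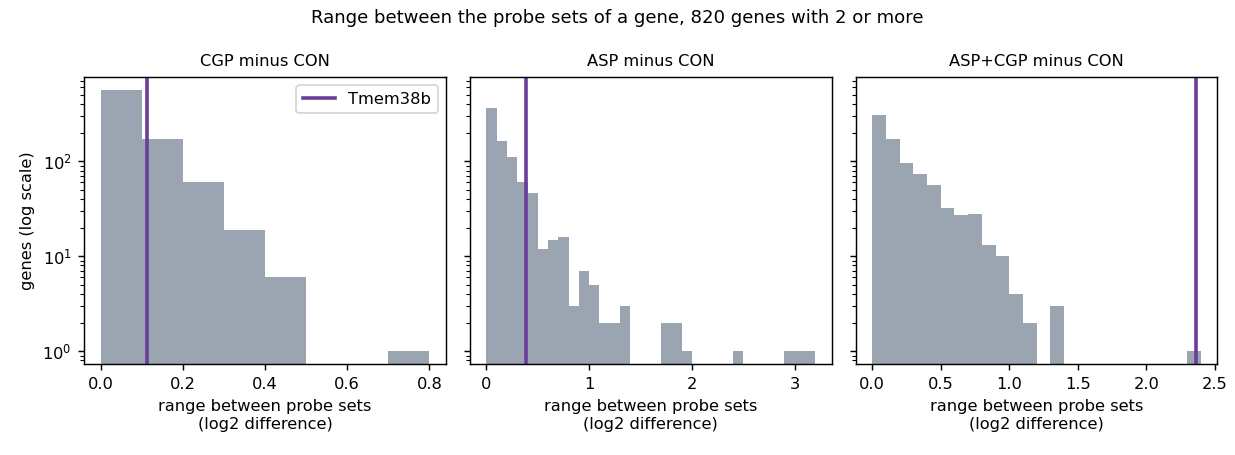
For each of 820 genes with more than 1 tested probe set, the range between its probe sets in the log2 difference from CON (horizontal axis) is counted in bins (vertical axis, log scale), in 3 comparisons. The line marks Tmem38b, which lay at 0.11, 0.38 and 2.36, and in ASP+CGP minus CON stood beyond all other genes, the next of which was at 1.34; the gene was singled out partly for this gap.

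Disagreement between probe sets of 1 gene was common on these arrays, but mostly slight. Since the gap between its probe sets is one reason why Tmem38b was singled out, its place among the other genes restates that choice and is given for scale only. Among 820 genes with more than 1 tested probe set, the median range between probe sets was 0.06 in CGP, 0.12 in ASP and 0.16 in ASP+CGP, each against CON. For CGP, 224 genes (27.3%) had a range at least as wide as that of Tmem38b, and for ASP 125 genes (15.2%) did. For ASP+CGP only 1 gene did, which was Tmem38b itself, beside a 99th percentile of 1.06 over all 820 genes. For ASP+CGP against ASP 8 genes and for the interaction 12 genes, Tmem38b included, were at least as wide. Over the 12 arrays the signals of both Tmem38b probe sets correlated with r = -0.75, where the median over 633 genes with exactly 2 tested probe sets was 0.76, and 14 of those genes (2.21%) were as low or lower. Within pools the deviations of the Tmem38b probe sets from their pool means correlated with r = -0.09, so that their opposition lay between pools. These correlations are descriptions over 12 arrays of 4 pools, which share RNA within a pool.

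What Tmem38b as a gene did therefore depended on how its probe sets were joined. Taken at its probe set with the highest mean signal, a common rule for 1 value per gene, Tmem38b was 0.33 below CON in ASP+CGP (log2 difference -0.33). The mean of both log2 signals gave 0.85, and the log2 of the mean linear signal gave 0.71. By the same 3 rules the difference in ASP was -0.18, 0.01 and -0.08, and in CGP it was 0.05, 0.11 and 0.08. The 0.01 in ASP is about 0 beside the standard errors of the probe sets (0.07 for 10505064 and 0.10 for 10505071). No deposited value was found that tells which transcripts each probe set measured, beyond the listing given above.

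**Figure D3:**
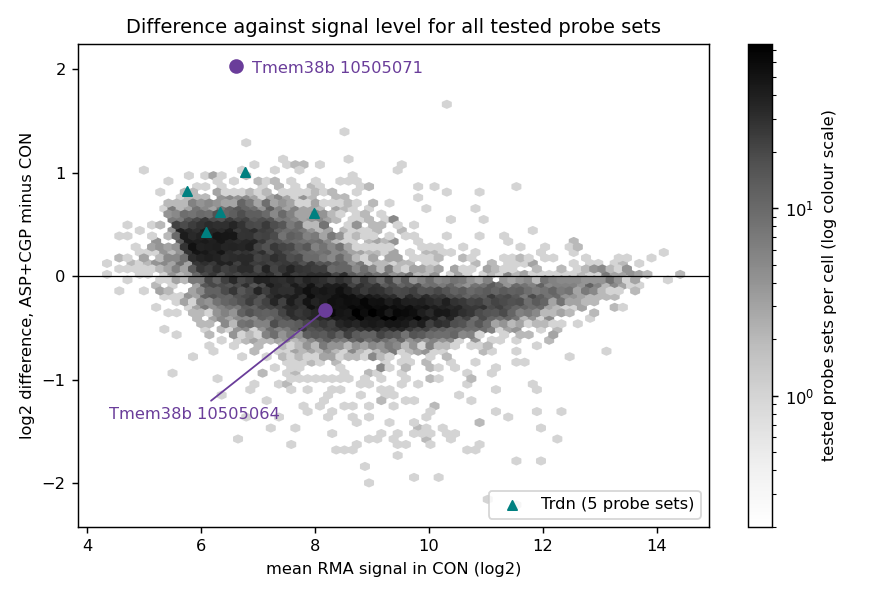
The log2 difference between ASP+CGP and CON (vertical axis) is plotted against the mean CON signal (log2, horizontal axis) for 17319 tested probe sets, shaded by number. Dim probe sets mostly lay above 0 and bright ones below it; Tmem38b 10505064 lay inside the cloud (-0.33), 10505071 outside it (2.03), and the 5 Trdn probe sets lay between 0.43 and 1.01.

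The opposite signs of the Tmem38b probe sets ran along with a trend of the whole array. In ASP+CGP against CON, probe sets with a CON signal between 6 and 7 had a median log2 difference of 0.23 and 76.1% of them lay above 0, whereas those between 9 and 10 had a median of -0.34. Tmem38b 10505071 has a CON signal of the dim kind. The 1785 probe sets within 0.25 of its CON signal had a median of 0.22 and ran from -0.33 at the 5th percentile to 0.62 at the 95th, with the highest apart from Tmem38b at 1.30, so that 10505071 was 1.81 above their median. For 10505064, the 1896 probe sets of like signal had a median of -0.21 and ran from -0.57 to 0.34, and the Tmem38b value of -0.33 lay at their 30.5 percentile, 0.12 below the median (difference -0.12). These places among other probe sets come from the contrast for which Tmem38b was singled out, so they describe the values and are no test of them. The part of the narrower signal range in either value was not tested.

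In ASP, 10505064 differed from the probe sets of its own brightness by -0.04 and in CGP by 0.04. For 10505071 these values were 0.21 in ASP and 0.19 in CGP, at percentiles 76.0 and 94.5 of probe sets of like signal.

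The scaling of the arrays did not change which pool stood out. With each array centred on its median the ASP+CGP difference from CON was 2.10 for 10505071 and -0.26 for 10505064, and after cyclic loess it was 1.98 and -0.18. Leaving out each array in turn kept the first value between 1.93 and 2.14 and the second between -0.37 and -0.29.

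Patterns most like those of the members were sought by Pearson correlation over the 12 arrays, among tested probe sets whose pool means spanned between 0.5 and 2 times the range of the member. For 10505071 the closest were Olfr314, an olfactory receptor gene (r = 0.96), both probe sets of Plb1, an intestinal phospholipase (each r = 0.94), Cyp2b23 of the cytochrome P450 family (r = 0.93) and the butyrophilin-like pseudogene Btnl5-ps (r = 0.93). All of them were higher in ASP+CGP than in CON, with log2 differences between 0.84 and 1.30, and 23 of 1320 eligible probe sets had r above 0.9. As they were chosen for likeness to the member in pattern and range, such differences restate the choice, here and for 10505064. For 10505064 the closest were Psmd1, a proteasome subunit (r = 0.99), Net1 (r = 0.98), the mitochondrial ribosome gene Mrpl16 (r = 0.98), Ddx52 (r = 0.97) and Rasa1 (r = 0.97), whose ASP+CGP differences ran from -0.49 to -0.24, and 794 of 13582 eligible probe sets were above 0.9.

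Genes beside Tmem38b on the chromosome, by the order of the RefSeq annotation of assembly GRCm38.p6, were set beside it. They were chosen by position, after the Tmem38b values were known. In ASP+CGP against CON, Abca1 before it differed by -0.51, Slc44a1 by -0.34 and -0.24 on its probe sets, and Zfp462 and Rad23b after it by -0.37 and -0.38. Their CON signals lie between 8 and 12, where at most 13.9% of probe sets in any range of signal were above 0 in this comparison, so the sign they share with 10505064 is that of nearly all probe sets as bright.

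The probe set listed for both Nwd1 and Tmem38a rose in another pool. Its log2 signal was 6.99, 7.17 and 7.10 in CON, 6.96, 7.00 and 7.10 in CGP, 8.41, 8.45 and 8.47 in ASP, and 7.31, 7.13 and 7.17 in ASP+CGP. The ASP arrays were well above the other 9. The CON arrays overlapped with those of CGP and of ASP+CGP, and all ASP+CGP arrays lay above all CGP arrays. Against CON the difference was -0.07 in CGP, 1.36 in ASP (2.56-fold, standard error 0.07) and 0.12 in ASP+CGP. Its closest patterns over the 12 arrays were those of Scrt1, Ccdc92, Lrrtm1, Arpp21 and Elavl3, of which Scrt1 and Elavl3 encode neuronal regulators, and 997 of 2554 eligible probe sets had r above 0.9. The neuron, oligodendrocyte and astrocyte markers rose in the same pool, where on the 3 ASP arrays the median over the neuron list was 1.96 to 1.98 above CON, over the oligodendrocyte list 1.93 to 2.19 and over the astrocyte list 2.30 to 2.55. Nwd1 and Tmem38a cannot be told apart here, and the part of these markers in the rise was not tested. Among the genes next to Tmem38a in the same annotation, Med26, Smim7, Sin3b and F2rl3, the ASP differences ran from -0.30 to 0.09.

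The wider pathway was read from 5 lists of genes for calcium release, pumping, buffering and entry and for brittle bone disease, of which 84 probe sets of 75 genes were tested. A probe set was called at a limma adjusted p under 0.05 and at least 1.4-fold. In CGP against CON 0 of 84 were called in either direction, where 1.51% of all tested probe sets were called higher and 0.0173% lower. In ASP 8 were higher and 9 lower (9.58% and 8.04% of all), and in ASP+CGP 9 were higher and 7 lower (6% and 8.38%). Among these 9 are Sln and Trdn probe set 10362446, which passed the filter only through ASP+CGP. Against ASP, 10 were higher and 6 lower in ASP+CGP (6.53% and 13.1%). The interaction was called for 13 higher and 7 lower, where 24.3% of all were called in either direction, 1575 higher and 2630 lower. Of the 84, 9.52% were thus higher and 10.7% lower in ASP, and 10.7% higher and 8.33% lower in ASP+CGP. The split within the lists changed with the scaling, as in ASP+CGP against CON 13 were higher and 3 lower with each array centred on its median, and 4 and 0 after cyclic loess. After cyclic loess it was also 9 higher and 2 lower in ASP, and 9 and 9 in ASP+CGP against ASP. The median over the 84 probe sets was -0.12 in ASP and -0.10 in ASP+CGP, beside -0.10 and -0.17 over all tested. The split of calls over the whole array turned with the scaling, from 41.7% higher in ASP+CGP against CON to 69.3% with centring and 55.4% after cyclic loess, and from 54.4% in ASP to 79.6% after cyclic loess.

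**Figure D4:**
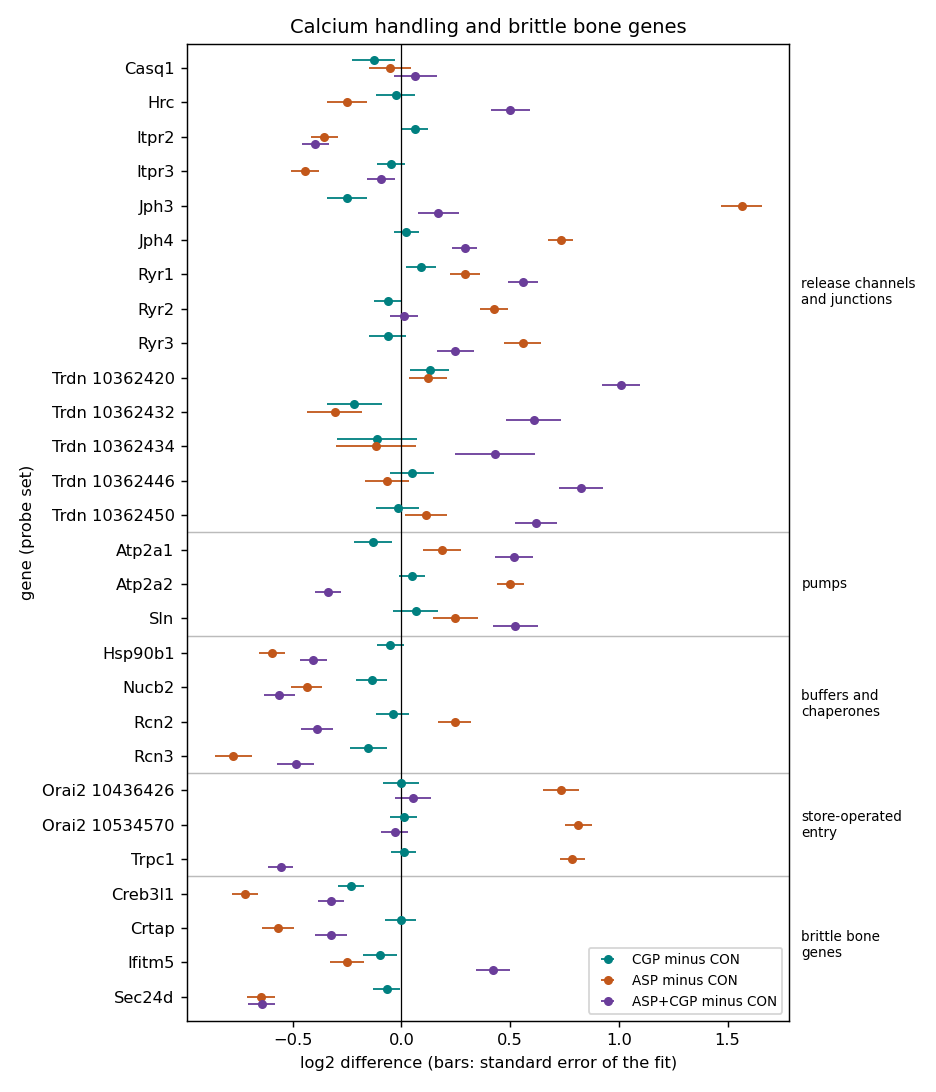
Points are log2 differences from CON (horizontal axis) for the named genes of the 5 pathway lists (vertical axis), with the standard error of the fit over 12 arrays. In ASP+CGP the Trdn probe sets (0.43 to 1.01), Ryr1 (0.56) and Hrc (0.50) lay above 0, while Jph3 (1.56), Trpc1 (0.79) and Orai2 (0.74 and 0.81) were highest in ASP.

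Among the 27 probe sets of calcium release channels and junction proteins, 7 were called higher in ASP+CGP and 0 lower, where 6% and 8.38% of all were, and the median was 0.25. Many of these probe sets are dim, and in this comparison all tested probe sets with a CON signal between 6 and 7 had a median of 0.23 and a 95th percentile of 0.61, and those between 7 and 8 a 95th percentile of 0.55. The values given below for Ryr1 and Hrc, in the first range, and for Jph2, in the second, lie under these percentiles. Of the 7, 4 belonged to Trdn, the junction protein triadin that ties the ryanodine receptor to the calcium store. Probe set 10362420 of Trdn gave 6.87, 6.68 and 6.75 in CON and 7.59, 7.98 and 7.75 in ASP+CGP, a difference of 1.01 ± 0.09 SE (2.01-fold, limma adjusted p = 1.89e-06), and the ASP and CGP arrays stayed at 6.84 to 6.99. The other Trdn probe sets differed in the same direction by 0.61, 0.43, 0.83 and 0.62, of which 0.43 was not called, and for the one at 0.83 the CON signal was under 6, so that it was at least 1.49-fold higher. That probe set, 10362446, reached a mean of 6 in ASP+CGP alone. The filter thus admitted it only through the pool where it is high, and its sign there was set by this. The remaining calls were Ryr1, the ryanodine receptor of skeletal muscle (0.56), 1 of the 2 probe sets of Jph2, a junctophilin of muscle (0.51, the other differing by 0.11), and Hrc, a calcium-binding protein of the store (0.50). Unlike the Tmem38b pair (CON signals 6.62 and 8.18), the 5 probe sets of Trdn had 1 sign in ASP+CGP. Apart from the one at 0.61 (CON signal 7.98), they had CON signals under 7. Above 0 lay 92.8% of tested probe sets with CON signals under 6 and 76.1% between 6 and 7. The former were tested only if the mean of another pool reached 6, so their share was partly set by the filter. Between 7 and 8 it was 42.4%, and between 8 and 9 13.9%. The Trdn values of 1.01, 0.83 and 0.61 lay above the 95th percentile of their range. That of 0.62 was close to it, and 0.43 was below. The part of brightness in the shared sign was not tested. Ryr2 and Ryr3 differed by 0.01 and 0.25, Casq1 by 0.06, and the inositol trisphosphate receptor genes Itpr2 and Itpr3 by -0.40 and -0.09, none of which was called. After cyclic loess 4 of the 7 calls remained, those of Jph2 and 3 Trdn probe sets. The calls of Jph2 and Hrc were lost without ASP+CGP array 1 (0.41 and 0.48), and that of Hrc also without ASP+CGP array 3 (0.45) or CON array 2 (0.47). The publication named both Tmem38b and Trdn from these arrays, so that the choice of this pathway is not independent of them.

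Muscle markers were counted beside these genes. In ASP+CGP 1 of 13 skeletal muscle markers was called higher (median 0.38) and 4 of 12 of the cardiac and slow muscle list (median 0.36), where 6% of all were, and where probe sets with a CON signal between 6 and 7 had a median of 0.23. After cyclic loess the medians were 0.23 and 0.28, each over the 11 probe sets that then passed the filter. On the ASP+CGP arrays the median of the skeletal list was 6.65 to 6.81 against 6.40 to 6.46 on the CON arrays, and that of the cardiac list 7.27 to 7.46 against 6.79 to 6.87. The part of muscle in the values of Trdn or Tmem38b was not tested.

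**Figure D5:**
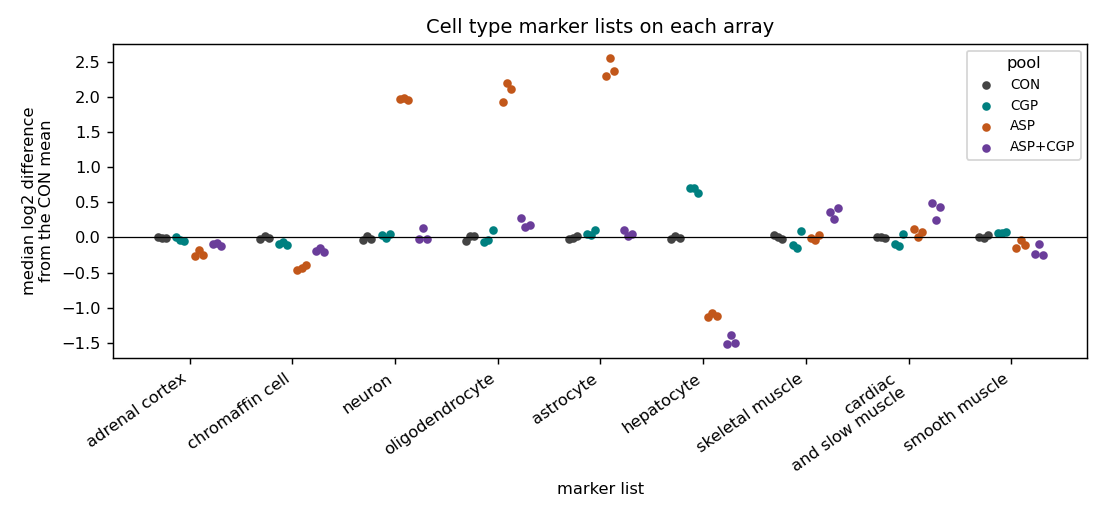
Each point is 1 array, with the median over the markers of a cell type list (horizontal axis) of their log2 difference from CON (vertical axis). The brain cell lists stood about 2 above CON on the ASP arrays, the hepatocyte list lay below CON in ASP and ASP+CGP, and the skeletal and cardiac muscle lists had medians of 0.24 to 0.48 on the ASP+CGP arrays.

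In ASP 4 of the 27 probe sets of the calcium release list (14.8%) were called, all higher. Of all tested probe sets 9.58% were called higher there and 8.04% lower. Jph3, a junctophilin of neurons, rose by 1.56 ± 0.09 SE (2.96-fold, limma adjusted p = 3.51e-09), Jph4 by 0.73 and Ryr3 by 0.56, and the fourth was 1 probe set of Jph1 (0.49), which was lost without ASP array 3 (0.39) or CON array 2 (0.44). The store-operated entry genes Orai2 (0.74 and 0.81) and Trpc1 (0.79) rose as well, and Trpc1 fell by 0.55 in ASP+CGP, a call that was lost after cyclic loess (-0.41). The pump gene Atp2a2 was 0.50 higher in ASP and 0.84 lower in ASP+CGP than in ASP, the former call being lost without ASP array 3 (0.47). In ASP+CGP the muscle pump gene Atp2a1 differed from CON by 0.52, a call lost without ASP+CGP array 1 or 3 (0.47 each) and after cyclic loess (0.40). Sln, which inhibits that pump, was also called there, but its CON signal was under 6 and the bound on its rise was 1.13-fold, and the call was lost without ASP+CGP array 1 (0.46) or CON array 1 or 3 (0.48 and 0.46) and after cyclic loess (0.29). Sln reached a mean of 6 in ASP+CGP alone, so the filter admitted it only through that pool and its sign was set by this.

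Chaperones and brittle bone genes had calls in the lower direction in both aspartame pools, where 8.04% of all tested probe sets were lower in ASP and 8.38% in ASP+CGP. The adrenal's own markers were lower in ASP as well, with medians of -0.42 over the chromaffin list and -0.24 over the cortex list, and their part in these values was not tested. Of 16 buffer and chaperone probe sets, Hsp90b1 (-0.59) and Rcn3 (-0.77) were lower in ASP, and Nucb2 (-0.56), P4hb (-0.49) and Rcn3 (-0.49) in ASP+CGP. Of 17 brittle bone probe sets, 7 were lower in ASP, among them Creb3l1, a factor of collagen secretion (-0.72), the coat protein gene Sec24d (-0.65) and Crtap, which modifies collagen (-0.57). In ASP+CGP 3 were, led by Sec24d (-0.64). Bright probe sets as a whole were lower in ASP+CGP than in CON. Those with a CON signal between 8 and 9 had a median of -0.26 and a 5th percentile of -0.58. Between 10 and 12 these were -0.30 and -0.57. The ASP+CGP values of Nucb2, in the first range, and Rcn3, in the second, lie above these percentiles, and that of Sec24d, in the second, lies below. After cyclic loess 1 of the 7 calls in ASP and 0 of the 3 in ASP+CGP remained, of the 3 chaperone calls in ASP+CGP 0 did, and in ASP the call of Hsp90b1 was lost (-0.44). The calls of P4hb and Rcn3 in ASP+CGP were lost without ASP+CGP array 3 (both -0.46), that of P4hb also without CON array 2 (-0.48), and that of Rcn3 also without ASP+CGP array 1 or CON array 2 or 3 (-0.47 to -0.49). Besides Creb3l1, Sec24d and Crtap, the brittle bone calls were each lost without at least 1 array. Tmem38b, itself a brittle bone gene, was left out of this list, whose medians were -0.43 in ASP and -0.23 in ASP+CGP. In the same comparisons its probe set 10505064 differed by -0.18 and -0.33, and 10505071 by 0.20 and 2.03.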

How the data were processed

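Signals of 12 arrays were taken as the authors deposited them, as log2 values per probe set produced by RMA in Partek (background correction, quantile normalisation and median polish). The labels name both tools without a version. All 26533 probe sets reach 6 on at least 1 array. Genes were named from the platform's listing of probe sets, in which 17710 have 1 gene symbol, 1077 several and 7746 none, and no coordinates are given because the files name no build. Array signals carry no counting depth, so the precision rests on the number of arrays.

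Single-gene probe sets with a mean of at least 6 in at least 1 pool were tested (17319 probe sets of 15900 genes). A model with a mean per pool was fitted to the 12 arrays with limma 3.58.1 in R 4.3.3 (and data.table, at version 1.17.8), with empirical Bayes moderation and Benjamini-Hochberg adjustment within each of 5 contrasts: the treated pools minus CON, ASP+CGP minus ASP, and the interaction. Calls needed an adjusted p under 0.05 and 1.4-fold, the thresholds in the study's methods. Several of its adrenal gene lists and networks used 1.8-fold instead, for which counts are given in the last section. Where a mean lay under 6 a fold is a bound, with that mean set to 6. The steps were tested on simulated data. Named list genes are Ryr1, Ryr2, Ryr3, Itpr2, Itpr3 and Casq1 and the members of each list with the largest called differences. P4hb, Jph1 and Jph2 were named after their values were seen, to complete short counts. The members, lists and naming rule were chosen with earlier results of these data known. Of 86 pathway genes, 11 were not analysed here. Alternatives covered scaling, filter, moderation, fold minimum, probe set choice, the replicate number as a block and each array left out.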

Additional observations from a re-analysis of the deposited data

Results flagged for a closer look

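The probe set listed for Nwd1 and Tmem38a lies outside the tested single-gene probe sets and was 1.36 higher in ASP than in CON (log2). Markers of brain cells rose in the same pool, as given above.

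ASP+CGP minus CGP and ASP minus CON differed for several genes of the pathway lists, by the interaction term of the limma fit (adjusted p under 0.05 and 1.4-fold). It was positive for the 5 Trdn probe sets (0.76 for 10362420, 1.13 for 10362432, 0.66 for 10362434, 0.85 for 10362446 and 0.52 for 10362450, log2), for Hrc (0.78), Ifitm5 (0.77) and Creb3l1 (0.62). Of these, Trdn 10362446 was tested only because its ASP+CGP mean reached 6. The call of Trdn 10362434 was lost with the replicate block (limma adjusted p = 0.0601), after cyclic loess (0.38), and without any 1 of ASP arrays 1 to 3, ASP+CGP array 1 or 3, CGP array 1 or CON array 1 or 3 (0.40 to 0.70). That of Trdn 10362450 was lost after cyclic loess (0.28) and without ASP+CGP array 2 (0.47) or CGP array 2 (0.41). It was negative for Trpc1 (-1.35), Jph3 (-1.14), Atp2a2 (-0.89), the Orai2 probe sets (-0.68 and -0.85) and Rcn2 (-0.59). Of the 84 list probe sets 15.5% passed this rule as higher and 8.33% as lower. Over all tested probe sets 24.3% passed it in either direction, 1575 as higher and 2630 as lower. Higher calls thus outnumbered lower ones in the lists (13 and 7) but not over the whole array. The 5 Trdn probe sets, of 1 gene, are among the 13. After cyclic loess the lists had 12 higher and 10 lower, beside 827 and 2614 over all. The part of the brain cell markers of the ASP pool in these values was not tested.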

How the results depend on the processing

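Every setting below was run on the same 12 arrays of 4 pools, so none speaks to the spread between mice. The 180 Tmem38b values with 1 array left out each stayed within the array spread of the reported ones. After cyclic loess, which moved the median of all tested probe sets by 0.11 in ASP and 0.15 in ASP+CGP, Tmem38b 10505064 differed from CON by -0.040 in ASP and -0.18 in ASP+CGP, the disagreement between probe sets in ASP+CGP was 2.16, and the interaction of 10505071 was 1.51. Calls in ASP+CGP against CON then numbered 1341 in place of 2490, with 4 list probe sets in place of 16, and the lists had 11 in ASP in place of 17. Settings chosen after seeing the data gave, for Tmem38b in ASP+CGP, -0.33 at its brightest probe set and 0.85 as the mean of both, and, minus the median of probe sets of like CON signal, 1.81 for 10505071 and -0.12 for 10505064. With 1.8-fold required, 95, 1141, 200, 1164 and 1408 probe sets were called (in CGP, ASP and ASP+CGP minus CON, in ASP+CGP minus ASP, and for the interaction), and 1, 1, 5 and 5 of the lists in all but the first. With all probe sets tested there were 5013, 5583 and 6551 in the last 3. With 1 probe set per gene the lists had 10 calls against ASP and 13 for the interaction. Leaving out 1 array gave 10 to 22 list calls in ASP+CGP against CON, the lowest without ASP+CGP array 1. The share of higher calls in ASP+CGP against ASP was 33.3%, or 43.6% with centring and 20.0% after cyclic loess, and for the interaction 37.5%, 47.8% and 24.0%. The labels give array numbers no shared source, and 9 of 18 same-numbered pairs, not all, had deviations correlated above 0.1 (range -0.15 to 0.37), so the numbers were not taken to pair the samples, although 6 of 12 arrays correlated best with their own number. The replicate block left the Tmem38b differences in ASP+CGP at 2.03 and -0.33 moved no count by over 1.5 times, and ended 1 call among the lists, the interaction of Trdn 10362434.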
